A study of Mus musculus with 8 samples.

Results

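The imprinted growth genes are a set of 10 genes that are expressed mainly from 1 parental allele and act on growth: H19, Igf2, Mest, Peg3, Dlk1, Grb10, Cdkn1c, Plagl1, Igf2r and Ndn. They are 10 of the 38293 gene identifiers in the bulk count tables and were followed in all 8 libraries of the series. The set was put together with their levels in these same libraries known, so their differences between groups are given here as a description, with no test. The libraries came from mouse mammary tumor organoids of the MMTV-PyMT; MMTV-Cre; Ecadherin-mCFP model, in which the viral MMTV promoter drives the polyoma middle T oncogene and Cre in mammary epithelium and E-cadherin carries a fluorescent tag. All groups share these alleles, and all organoids were grown for 4 days with FGF2 after splitting as single cells. Control organoids were compared with organoids in which SOX4, a transcription factor of the SOX family, was knocked out by CRISPR/Cas9 (SOX4KO). Bulk RNA-seq covered 2 control lines (WT1 and WT3) and 3 SOX4KO lines (H7, M4 and H4), and plate-based single-cell RNA-seq covered 1 control library (GR17) and 2 SOX4KO libraries (GR18 and GR19). The labels do not say which bulk line a single-cell library was made from, nor whether a line is 1 clone, and the age of the animals is not given in the sources used here.

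Genomic imprinting marks the maternal and paternal copies of a gene differently in the germ line, mostly by DNA methylation, so that only 1 copy is read in the offspring. Many paternally expressed imprinted genes promote fetal growth (Igf2, Mest, Peg3, Dlk1) and many maternally expressed genes restrain it (H19, Grb10, Cdkn1c, Igf2r). Most are abundant in the embryo and placenta and are turned down after birth, and several are switched on again in tumors. The libraries count transcripts and do not tell the parental alleles apart, so imprinting itself was not measured.

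In the GENCODE annotation of GRCm38, the 10 genes lay on 6 chromosomes, and 5 of them were on chromosome 7. H19 (chr7:142575529-142578143, minus strand) and Igf2 (chr7:142650766-142666816, minus strand) were 72.6 kb apart, and Cdkn1c (chr7:143458339-143461050, minus strand) lay 0.792 Mb beyond Igf2. Peg3 (chr7:6703892-6730431, minus strand) and Ndn (chr7:62346569-62350262, plus strand) lay elsewhere on that chromosome. Mest (chr6:30723547-30748465, plus strand) runs into the end of Copg2 on the opposite strand, and Igf2r (chr17:12682406-12769664, minus strand) is overlapped by the antisense RNA gene Airn. Plagl1 (chr10:13060504-13131694, plus strand), Dlk1 (chr12:109452823-109463336, plus strand) and Grb10 (chr11:11930508-12038683, minus strand) completed the set. The bulk kit was directional, but the strand setting of the counting is not given in the sources used here, so reads where Mest meets Copg2 and where Igf2r meets Airn could belong to either gene.

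Promoter sequence was available from RefSeq (GRCm38.p6) for 8 of the 10 genes, in 14 windows, since some have more than 1 start site. H19 and Cdkn1c had no entry. The 250 bases before the start are shown for Mest and Peg3, the genes whose values differed most between the groups among those well measured, and for Igf2r, which had the most CpG sites of the members that were measured well. CpG dinucleotides, the sites of DNA methylation, are in capitals, and each sequence is written 5′ to 3′ on the strand of its gene.
Mest, chr6:30737800-30738049, plus strand: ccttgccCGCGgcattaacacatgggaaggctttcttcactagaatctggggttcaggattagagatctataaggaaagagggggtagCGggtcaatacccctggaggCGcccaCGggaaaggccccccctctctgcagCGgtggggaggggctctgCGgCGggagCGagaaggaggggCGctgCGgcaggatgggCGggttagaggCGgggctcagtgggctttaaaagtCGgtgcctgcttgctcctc
Peg3, chr7:6730420-6730669, minus strand: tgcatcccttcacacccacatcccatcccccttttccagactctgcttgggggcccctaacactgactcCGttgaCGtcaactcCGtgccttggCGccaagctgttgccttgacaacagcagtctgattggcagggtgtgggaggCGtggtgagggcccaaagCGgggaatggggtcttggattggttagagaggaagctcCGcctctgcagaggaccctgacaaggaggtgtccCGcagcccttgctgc
Igf2r, chr17:12769707-12769956, minus strand: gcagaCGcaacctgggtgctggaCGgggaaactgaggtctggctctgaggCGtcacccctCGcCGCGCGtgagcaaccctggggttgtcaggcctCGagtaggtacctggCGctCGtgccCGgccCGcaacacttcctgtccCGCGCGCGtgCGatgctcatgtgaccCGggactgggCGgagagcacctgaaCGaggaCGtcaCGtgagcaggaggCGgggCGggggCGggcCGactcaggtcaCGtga
The Mest window shown held 14 CpG sites, the Peg3 window 8 and the Igf2r window 27. Another Mest window, at chr6:30733256-30733505, held 7. Over all 32851 promoter windows of the same length the median was 6. The windows of 11 of the 14 member starts held more than that median. The letters AACAAAG, a core motif bound by SOX family factors, were searched on both strands. They were found in 0 of the 14 windows, and 5.03% of all windows of this length held them. The absence says only that these letters are not in these 250 bases.

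The bulk libraries held 3050323 to 4678497 counted reads and the single-cell libraries 7714119 to 8296953 UMIs (counted transcript molecules) in 369, 369 and 362 cells. Levels are given as CPM, the counts of a gene divided by the scaled total and given per 1000000 counts; in bulk the total was scaled by TMM. Sox4 RNA was present in every line, at 295 and 374 CPM in the control lines and 199, 179 and 299 CPM in the SOX4KO lines, and an edited gene can still be transcribed, so this level does not check the labels. Markers of luminal and basal mammary epithelium were expressed in every library. The marker lists of adipocytes and endothelial cells summed to at most 0.398 and 2.52 CPM in any bulk line, that of leukocytes to between 1.59 and 14.3 CPM, and that of fibroblasts to 201 and 315 CPM in control lines and 130 to 142 CPM in SOX4KO lines. In bulk RNA, fewer cells of a type and less RNA per cell cannot be told apart.

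In bulk, 5 of the 10 genes had enough reads to be fitted (H19, Mest, Peg3, Plagl1 and Igf2r). The other 5 had fewer than 10 reads in every line, as had 26110 of all 38293 identifiers. Mest was higher in all 3 SOX4KO lines than in both control lines, Peg3 was lower, Igf2r was slightly higher, Plagl1 did not separate the groups, and H19 was abundant in 1 control line alone. The fit called 1 of the 5 higher in SOX4KO (Mest) and none lower, where edgeR, at an adjusted p under 0.1, called 6.27% of the 11682 genes of the whole fit, 4.1% upward and 2.17% downward. At an unadjusted p under 0.05, 2 members were higher and 2 lower, where 10.4% and 7.68% of all genes were, and DESeq2 called Peg3 lower. The groups did not overlap for 3 of the 5, where this held for 36.9% of all genes tested. The members were chosen with this contrast known, so nothing is read from these counts.

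**Figure D1:**
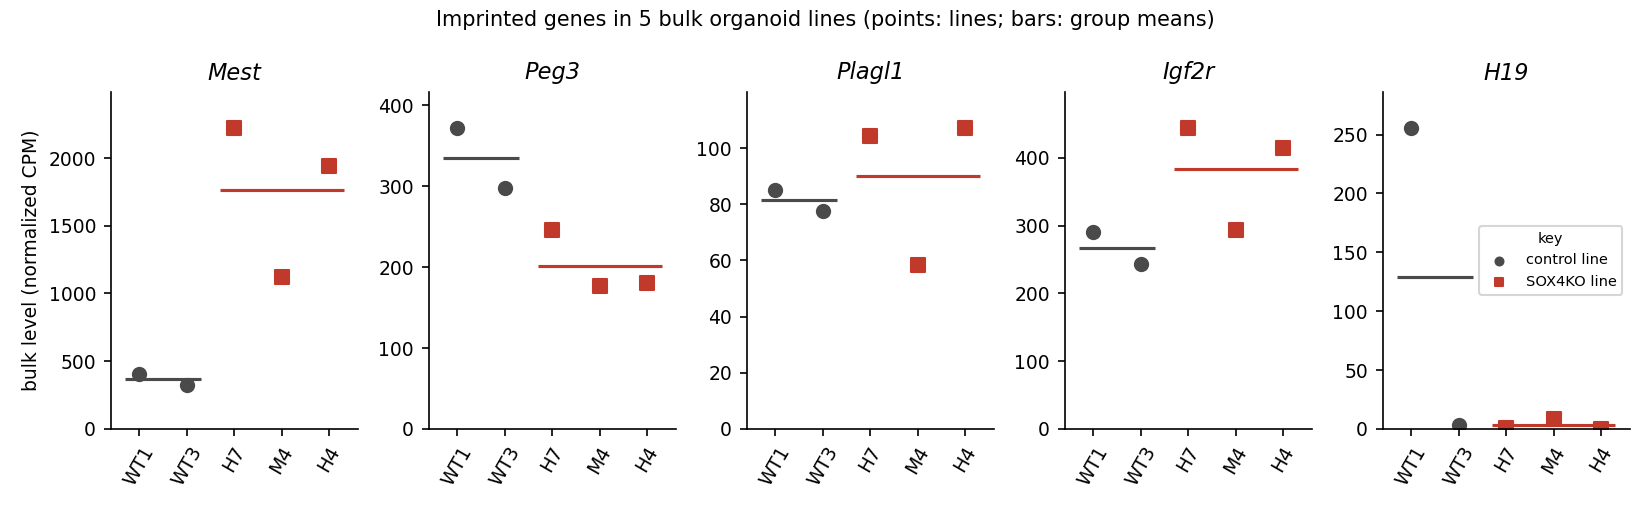
Level of the 5 imprinted growth genes fitted in bulk (vertical axis, TMM-normalized CPM, linear and from 0) in each of 5 organoid lines (horizontal axis). Gray circles are control lines, red squares are SOX4KO lines and horizontal bars are group means. Mest lies between 1125 and 2221 CPM in SOX4KO lines against 326 and 405 CPM in control lines, and H19 stands out in WT1 alone at 255 CPM.

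Mest (mesoderm specific transcript, Ensembl ENSMUSG00000051855) encodes a hydrolase-like protein of the endoplasmic reticulum and is expressed from the paternal copy. Its bulk level was 405 CPM in WT1 and 326 CPM in WT3, and 2221 CPM in H7, 1125 CPM in M4 and 1940 CPM in H4. Every SOX4KO line was above both control lines, and the lowest of them, M4, was well clear of the higher control line. The mean of the control lines was 366 ± 56 CPM (SD, n = 2) and that of the SOX4KO lines 1762 ± 570 CPM (SD, n = 3), a log2 fold change of 2.27 (SE 0.325). The log2 fold change stayed between 2.06 and 2.50 when each line was left out in turn, and was 2.12 without WT3. Mest was chosen with this contrast known, so this range describes the lines and is no test. Per kilobase of exon, Mest was the most abundant of the 10 genes in every SOX4KO line, at 285 to 563 CPM per kb, and in WT1 it was level with H19, at 103 against 104 CPM per kb. In the same lines, the summed level of the basal marker list was 1374 and 2157 CPM in control and 2707 to 7367 CPM in SOX4KO. That of the luminal list was 2824 and 2918 CPM against 1947 to 2573 CPM. Of the basal sum, Sparc alone gave 1302 and 732.5 CPM in control and 3763, 5342 and 1692 CPM in H7, M4 and H4. The groups overlapped for the basal keratins Krt5, Krt14 and Krt17. Of the 8 basal markers fitted, 7 had positive log2 fold changes and 1 negative, and of 12 luminal markers 3 and 9. The part of these lists in the Mest difference was not tested.

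Copg2, a coat protein gene that converges on the end of Mest, was at 141 and 128 CPM in control lines and 160, 149 and 124 CPM in SOX4KO lines. Its groups overlapped, and its log2 fold change was 0.10 (SE 0.18, edgeR adjusted p = 0.822). Klf14, the other imprinted neighbor of Mest in the list, had 0 reads in all 5 lines. The 3 tested genes whose pattern over the 5 lines lay nearest to that of Mest were Apobec1, Plxna2 and Fam89a, at Euclidean distances of 0.38, 0.393 and 0.437 in centered log2 CPM, where the pattern of Mest itself had a length of 2.55.

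Peg3 encodes a zinc finger protein and is likewise expressed from the paternal copy. It was at 372 CPM in WT1 and 298 CPM in WT3, and at 246, 177 and 180 CPM in H7, M4 and H4. The SOX4KO lines were all below the control lines, and H7 was the closest to them. The means were 335 ± 52.1 CPM (SD, n = 2) and 201 ± 39 CPM (SD, n = 3), and the log2 fold change was -0.74 (SE 0.21), with a range of -0.911 to -0.569 when lines were left out. Of its neighbors on chromosome 7, Usp29 had 2 reads in WT1 and in H4 and none elsewhere, and Zim1, a zinc finger gene, had 52 reads in WT1, 8 in WT3, and 0, 1 and 0 in the SOX4KO lines, too few for the fit. The nearest patterns to that of Peg3 were those of 2010300C02Rik, Ticrr and Gm2991, at distances of 0.158, 0.172 and 0.178 against a length of 0.926.

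Plagl1, a zinc finger transcription factor that restrains cell division, was at 85.2 and 77.5 CPM in control lines and 104, 58.3 and 107 CPM in SOX4KO lines. M4 was below both control lines and the other SOX4KO lines were above them, so the groups overlapped. The log2 fold change was 0.15 (SE 0.264). Its nearest patterns were those of Arhgef12, Ptpn4 and Pdpk1, at distances of 0.108 to 0.123 against a length of 0.711, and these genes likewise had their lowest level in M4.

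Igf2r encodes the mannose-6-phosphate receptor, which takes up IGF2 and carries it to lysosomes. It was at 291 and 243 CPM in control lines and 444, 294 and 415 CPM in SOX4KO lines, and M4 exceeded WT1 by little. The log2 fold change was 0.53 (SE 0.225), and leaving out a line moved it between 0.401 and 0.680. Airn, the antisense RNA that silences the paternal Igf2r copy in the embryo, was at 7.77 and 8.16 CPM in control lines and 20.4, 10.4 and 11 CPM in SOX4KO lines, with a log2 fold change of 0.81 (SE 0.367, edgeR adjusted p = 0.295). Airn did not pass the test. Slc22a2 and Slc22a3, also in this cluster, had 0 reads. Ficd, Nf1 and Zfp248 were nearest to Igf2r in pattern, at distances of 0.0789, 0.0888 and 0.106 against a length of 0.738.

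H19 is a long noncoding RNA, expressed from the maternal copy, that shares enhancers with Igf2. Its reads numbered 987 and 15 in the control lines WT1 and WT3 and 2, 24 and 0 in the SOX4KO lines H7, M4 and H4, or 255, 2.99, 0.522, 8.64 and 0 CPM. WT1 stood far above all other lines, and the SOX4KO line M4 was above the control line WT3. The level in WT1 was 85.5 times that in WT3, the largest excess of WT1 over WT3 among all 11682 genes tested. The fitted log2 fold change of -5.64 (SE 1.6) therefore rested on WT1 and was -0.0945 without that line. H19 was not lower in SOX4KO than in WT3 in every line, and its groups overlapped. Zim1 above and Igfbp4 (57 reads in WT1, 2 in WT3 and 0 in each SOX4KO line) had their reads mainly in WT1 too. The genes nearest to H19 were Zfp521, Btn1a1 and Gfra1, at distances of 4.12 to 4.57 against a length of 7.02, so their patterns resembled it only loosely.

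The other 5 genes were at or near zero in all bulk lines. Igf2, the growth factor itself, had 2, 0, 2, 3 and 1 reads in WT1, WT3, H7, M4 and H4. Dlk1, a membrane protein related to Notch ligands, had 1 read, in H4. Cdkn1c, a cyclin-dependent kinase inhibitor, had 2 reads, in WT1. Grb10, an adaptor that dampens signaling of the insulin and IGF1 receptors, and Ndn, a MAGE family protein, had 0 reads in every line. A count of 0 allows up to 3 reads, or 0.597 to 1.08 CPM depending on the line, so no difference could be seen for these genes at this depth. These limits cover counting error only.

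The imprinted clusters around the silent members held many genes without reads too. Of all 38293 identifiers, 20363 had 0 reads in all 5 lines, so such silence is not particular to these clusters. Near Dlk1, Meg3, Rian, Mirg, Rtl1 and Dio3 had 0 reads in all 5 lines. Near Ndn, Magel2 and Peg12 had 0 reads, Mkrn3 had 3 to 8 reads in each line, and Ube3a, a ubiquitin ligase, was at 79.5 and 84.2 CPM in control lines and 80.3 to 121 CPM in SOX4KO lines (log2 fold change 0.23, SE 0.213, edgeR adjusted p = 0.643). Ins2, next to Igf2, and Ddc, next to Grb10, had 0 reads. The cluster of Cdkn1c differed, since 7 of its neighbors in the list were fitted while Cdkn1c itself had almost no reads and Ascl2 had none. Kcnq1, a potassium channel, was at 17.3 and 24.3 CPM in control lines and 29.5, 26.6 and 51.2 CPM in SOX4KO lines (log2 fold change 0.78, SE 0.322, edgeR adjusted p = 0.25). Phlda2, which restrains placental growth, was at 5.95 and 10.75 CPM in control lines and 10.80 to 11.97 CPM in SOX4KO lines (log2 fold change 0.44, SE 0.33, edgeR adjusted p = 0.557). Cd81 (log2 fold change 0.18), Tssc4 (0.15) and Slc22a18 (0.15) had edgeR adjusted p-values of 0.667, 0.815 and 0.91. Nap1l4 and Osbpl5 were at 84.7 and 104.6 CPM and 75.3 and 72.7 CPM in control lines, and their log2 fold changes were -0.07 (SE 0.174, edgeR adjusted p = 0.886) and -0.06 (SE 0.188, edgeR adjusted p = 0.907). None of these 7 neighbors passed the test.

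Over the 56 other imprinted genes listed, 51 had an identifier in the tables, 25 had no read in any line and 19 were fitted. Of all 38293 identifiers, 20363 had no read in any line. Of the 19, 0 were called higher and 0 lower by edgeR, where 4.1% and 2.17% of all genes were. At an unadjusted p under 0.05, 2 were higher and 1 lower, where 10.4% and 7.68% of all genes were. DESeq2 called 0 higher and 1 lower. The list was chosen with earlier results of these data known, so nothing is read from these counts. The median log2 fold change was 0.154, with 15 above and 4 below zero, beside a median of 0.00867 over all genes tested. The largest fall in value was that of Impact, a regulator of translation under amino acid shortage, at 30.03 and 35.6 CPM in control lines and 10.7, 24.5 and 10.3 CPM in SOX4KO lines (log2 fold change -1.15, SE 0.365, edgeR adjusted p = 0.143). Impact was picked out after its values were seen. The value for Mest lay above those of all 19 genes, but Mest was chosen with this contrast known, so nothing is read from this order.

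**Figure D2:**
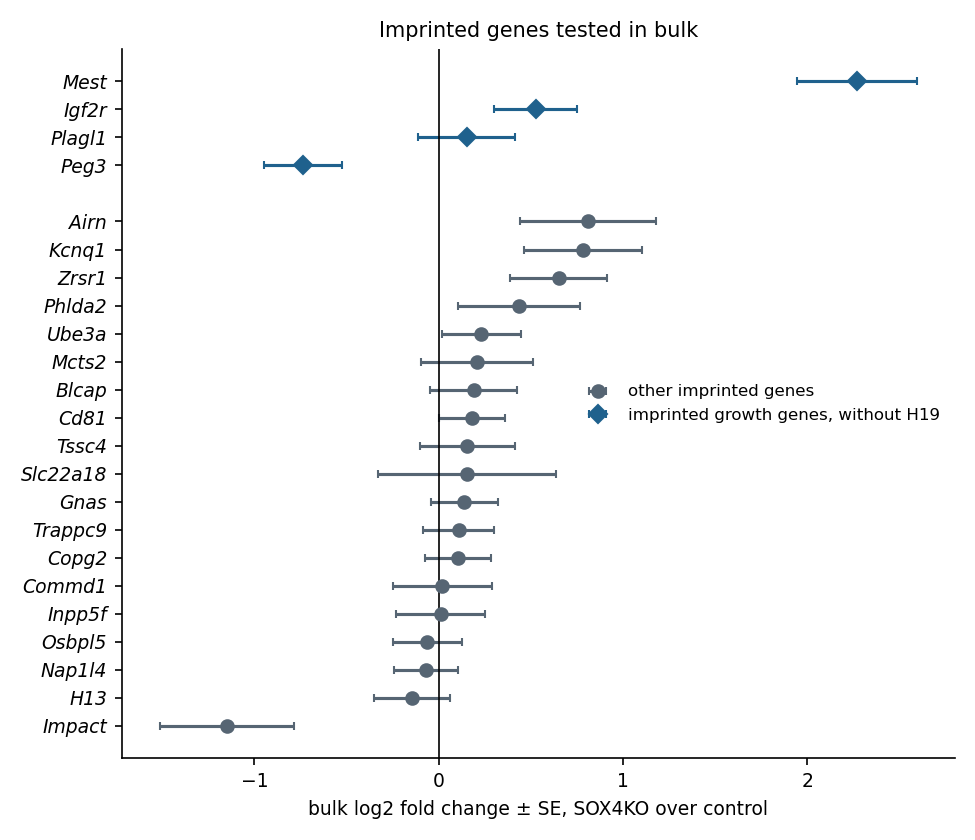
Bulk log2 fold change of SOX4KO over control (horizontal axis, with SE as bars) for the 19 other imprinted genes that were fitted (gray circles) and for 4 imprinted growth genes (blue diamonds, H19 left out for scale). Mest is at 2.27, and the other imprinted genes run from -1.15 for Impact to 0.81 for Airn.

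The genes of the IGF pathway that surround Igf2 and Igf2r were examined with the same fit. Of 17 listed genes, 9 were fitted and 7 of these did not pass. By edgeR, 2 were called higher and 0 lower, where 4.1% and 2.17% of all genes were. At an unadjusted p under 0.05, 2 were higher and 0 lower, where 10.4% and 7.68% of all genes were. DESeq2 called 1 higher. The list was chosen with earlier results of these data known, so nothing is read from these counts. Both called genes encode secreted proteins that bind IGFs, and the median log2 fold change of the list was 0.113. Igfbp3 was at 122 and 40.8 CPM in control lines and 308, 663 and 199 CPM in SOX4KO lines, with no overlap. It rose by a log2 fold change of 2.26 (SE 0.6, edgeR adjusted p = 0.0892), a call kept in 1 of the 5 fits that left out a line. Igfbp7 was at 34.9 and 12.9 CPM in control lines and 81.4, 66.9 and 97.5 CPM in SOX4KO lines. It rose by 1.80 (SE 0.385, edgeR adjusted p = 0.0492), a call kept in 4 of the 5 fits and lost without WT3. The receptors did not pass the test: Igf1r, the signaling receptor for IGFs, was at 15.8 and 11.2 CPM in control lines and 10.4 to 14.4 CPM in SOX4KO lines (edgeR adjusted p = 0.875), and Insr, the insulin receptor, had an edgeR adjusted p of 0.628. The ligand Igf1 had at most 5 reads in a line.

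Genes that set or keep imprints formed the last list. Of 13 listed, 9 were fitted and 8 of these did not pass. By edgeR, 1 was called lower and 0 higher, where 2.17% and 4.1% of all genes were. At an unadjusted p under 0.05, 4 were lower and 0 higher, where 7.68% and 10.4% of all genes were. The list was chosen with earlier results of these data known, so nothing is read from these counts. Its median log2 fold change was -0.24. Hells, a chromatin remodeler needed for DNA methylation and abundant in dividing cells, was at 41.9 and 46.2 CPM in control lines and 25.8, 24.5 and 18.7 CPM in SOX4KO lines. It fell by 0.94 on the log2 scale (SE 0.208, edgeR adjusted p = 0.0533), a call lost without either control line. Dnmt1, which copies methylation onto new DNA, was at 99.9 and 103 CPM against 73.4 to 82.4 CPM (log2 fold change -0.39, SE 0.158, edgeR adjusted p = 0.251) and did not pass. All 10 genes of the cycling-cell marker list had negative log2 fold changes in the same lines, with a median of -0.789. Of these, 5 were called lower by edgeR, where 2.17% of all genes were. The part of cell division in the fall of Hells was not tested.

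In the single-cell libraries each group difference compares libraries, not conditions, since there was 1 control library, and the intervals cover counting error only. Mest was again higher in both SOX4KO libraries, and Peg3 was higher too, opposite to its direction in bulk. Plagl1 was somewhat lower, Igf2r was close to even, and H19 and Igf2 were rare. Dlk1, Cdkn1c and Ndn had no UMI in any kept cell and Grb10 had 1 UMI, in GR18. A count of 0 allows up to 3, or a share of cells with a UMI of up to 0.813% of 369 cells and 0.829% of 362 cells. Among members whose mean level reached 20 CPM (Mest, Peg3 and Igf2r), 1 (Mest) was at least 2-fold higher in both SOX4KO libraries and 0 were at least 2-fold lower. Of all 6303 genes that reached this level, 2.0% and 0.333% were. The other members, Plagl1 among them, lay below it and were not counted.

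**Figure D3:**
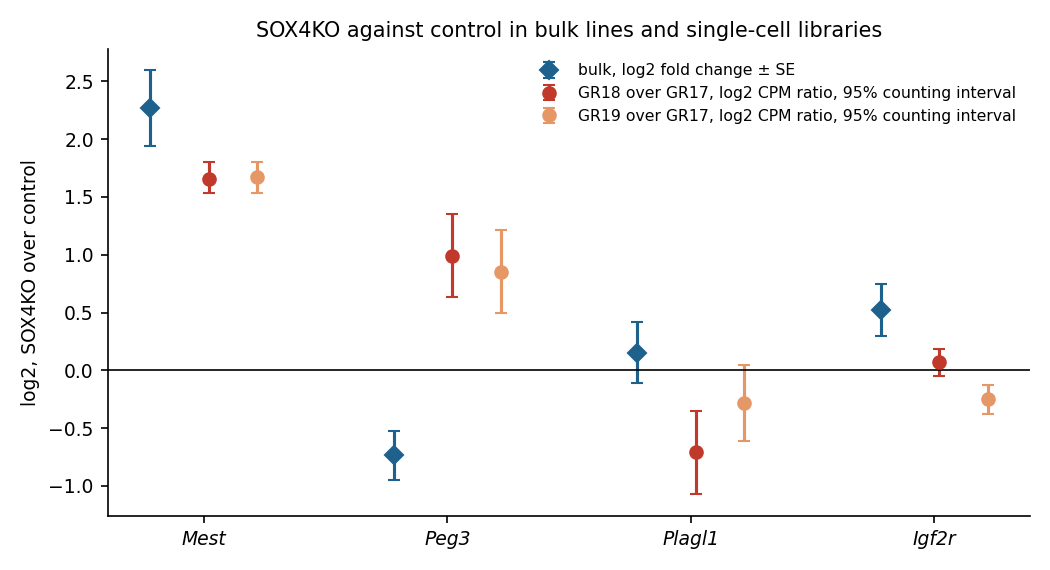
Difference between SOX4KO and control for 4 imprinted growth genes on a log2 scale (vertical axis). Blue diamonds are the bulk log2 fold changes with SE, and red and orange circles are the CPM ratios of the SOX4KO libraries GR18 and GR19 over the control library GR17 with 95% counting intervals. Mest is above zero in all 3 comparisons, and Peg3 is at -0.74 in bulk but at 0.989 and 0.851 in the single-cell libraries.

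Mest gave 600 UMIs in GR17, 1973 in GR18 and 2048 in GR19, or 77.8, 246 and 247 CPM. Both SOX4KO libraries were above control by a like amount, 3.17 times (95% interval 2.89 to 3.48) and 3.17 times (2.90 to 3.48). The summed basal marker list was at 4990, 5190 and 2950 CPM in GR17, GR18 and GR19, and the luminal list at 1600, 1580 and 1950 CPM. The GR19 sums were thus lower for basal and higher for luminal markers than in control, unlike the sums of the bulk SOX4KO lines. Within each list the markers did not move together. In GR19 basal Krt5 and Krt14 were at 0.278 and 0.642 times control, but Trp63 and Mylk at 1.26 and 2.32 times. Luminal Krt8 was at 1.52 times control, but Foxa1 and Epcam at 0.44 and 0.72 times. The part of these lists in the Mest difference was not tested. A Mest UMI was found in 39% of GR17 cells (95% Clopper-Pearson interval 34 to 44.2), 54.5% of GR18 cells (49.2 to 59.6) and 45% of GR19 cells (39.8 to 50.3). The interval of GR19 overlapped that of GR17, so the share of cells separated the groups less than the level did. With every cell thinned to 5000 UMIs the shares were 21.9%, 33.2% and 25.1%, with 8, 4 and 4 shallower cells left out. For comparison, 4.34 to 4.70% of cells held a UMI of any of 7 leukocyte genes, 4.61 to 7.32% of any of 5 endothelial genes, 12.7 to 16.8% of any of 9 fibroblast genes and 0% of any of 5 adipocyte genes, at median depths of 19845 to 21876.5 UMIs per cell.

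The Mest signal was concentrated in few cells. The 10% of cells with the most Mest held 71% of its UMIs in GR17, 70.2% in GR18 and 84.8% in GR19, whereas genes of like total had medians of 31.6%, 26.4% and 25.6%. Of 1044, 320 and 299 such genes, 0, 2 and 0 were more concentrated than Mest. Cells with 30 or more Mest UMIs numbered 3, 16 and 18 and carried 22%, 50.7% and 69.3% of the UMIs, and the highest cell held 70, 118 and 310 UMIs. The mean over cells with a UMI was 4.17 UMIs in GR17, 9.82 in GR18 and 12.6 in GR19. The SOX4KO libraries thus held more cells with high Mest: 16 cells of GR17, 52 of GR18 and 41 of GR19 had at least 10 UMIs.

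Cells with at least 10 Mest UMIs differed from cells without Mest in the same direction in all 3 libraries by their summed basal and luminal marker lists. Their summed level of 12 basal markers was higher, at 6720 against 4300 CPM in GR17, 7510 against 3910 CPM in GR18 and 5020 against 2390 CPM in GR19. Their summed level of 14 luminal markers was lower, at 1040 against 1730 CPM, 1090 against 1840 CPM and 1410 against 2100 CPM. Krt5, a basal keratin, was at 2890 against 1480 CPM in GR17, 2500 against 859 CPM in GR18 and 1300 against 326 CPM in GR19, and Krt18, a luminal keratin, was at 172 against 311, 95.2 against 289 and 155 against 363 CPM. Krt14 and Sparc, also on the basal list, were higher in all 3 libraries too, but Vim on that list was not. Vim was at 587 against 716 CPM in GR17, 890 against 670 CPM in GR18 and 801 against 642 CPM in GR19. For both summed lists, cells with 1 to 9 Mest UMIs lay between these ends in every library. The median depth differed little, at 20612.5 against 19156 UMIs in GR17, 22276.5 against 19044 in GR18 and 23667 against 20359 in GR19. The cycling list was also higher in the cells with high Mest, at 3530 against 2530, 2510 against 1930 and 2500 against 2050 CPM. Peg3 did not differ in a single direction with high Mest: it was 20.9 against 12.8 CPM in GR17, 24.6 against 33.3 CPM in GR18 and 22.1 against 17.3 CPM in GR19. The limit of 10 UMIs is a cut through a range, and 17, 32 and 14 further cells held 5 to 9 UMIs. The cells were picked by their Mest count, so the values describe them and carry no test.

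Peg3 gave 99, 204 and 192 UMIs in GR17, GR18 and GR19, or 12.8, 25.5 and 23.1 CPM. It was 1.98 times as high in GR18 as in control (95% interval 1.55 to 2.55) and 1.80 times in GR19 (1.41 to 2.32). A Peg3 UMI was found in 19.5% (15.6 to 23.9), 30.9% (26.2 to 35.9) and 30.1% (25.4 to 35.1) of cells. It was the member whose intervals in both SOX4KO libraries lay above that of control, where 7.45% of 10899 genes had such intervals and 4.68% had them below. After thinning to 5000 UMIs the shares were 6.93%, 11.8% and 9.5% and the intervals overlapped, so that 0 members remained, where 2.95% of all genes did. Unlike Mest, Peg3 was seen mostly as single UMIs, with 56, 66 and 69 cells holding exactly 1 and 1, 5 and 5 cells holding at least 5. Between cells with and without Mest, the share of Peg3 cells differed in no single direction. It was 20.1% and 19.1% in GR17, 28.9% and 33.3% in GR18 and 35% and 26.1% in GR19. Cells with Mest were also deeper, at medians of 20893.5 against 19156 UMIs in GR17, 21239 against 19044 in GR18 and 23584 against 20359 in GR19.

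**Figure D4:**
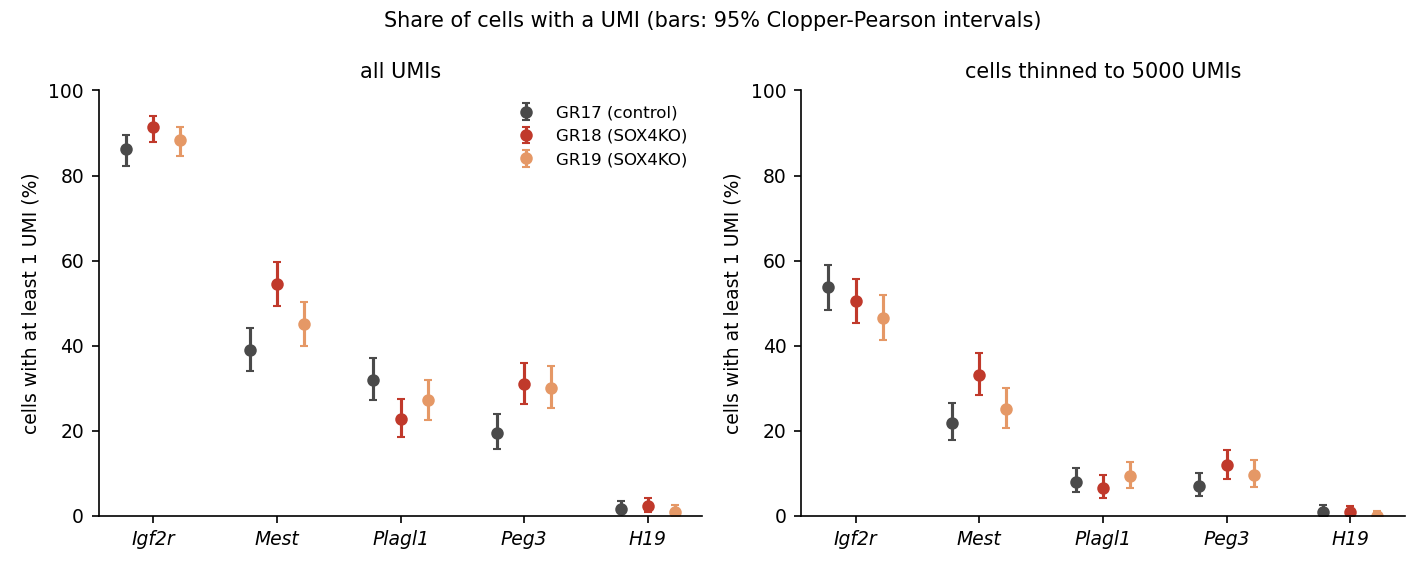
Share of cells with at least 1 UMI (vertical axis, percent) for 5 imprinted growth genes in the control library GR17 and the SOX4KO libraries GR18 and GR19, with all UMIs (left) and after thinning each cell to 5000 UMIs (right). Bars are 95% Clopper-Pearson intervals. Igf2r is found in 86.2 to 91.3% of cells with all UMIs, and H19 in at most 2.17%.

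Plagl1 was at 21.6 CPM in GR17, 13.2 CPM in GR18 and 17.8 CPM in GR19. The ratio to control was 0.611 (0.475 to 0.784) in GR18 and 0.824 (0.656 to 1.03) in GR19, whose interval included 1. Igf2r was at 142, 149 and 119 CPM, with ratios of 1.05 (0.968 to 1.14) and 0.840 (0.770 to 0.916), so the SOX4KO libraries lay on either side of control. It was the most widely found member, in 86.2%, 91.3% and 88.4% of cells, and its UMIs were spread like those of other genes of its level, with 28.1%, 25.5% and 27.3% in the top 10% of cells.

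H19 gave 15 UMIs in 6 cells of GR17, 42 UMIs in 8 cells of GR18 and 7 UMIs in 3 cells of GR19. The 3 cells with the most held 12, 37 and 7 of them, and 1 cell of GR18 held 21. The share of cells, 0.829 to 2.17%, rested on so few cells that it did not separate the libraries, and the CPM of 1.94, 5.24 and 0.844 followed a few cells in each. Igf2 gave 3, 5 and 2 UMIs, and no cell held both H19 and Igf2.

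Cells were clustered without the 10 genes, 3 of which (H19, Mest and Peg3) would have entered among the 2000 variable genes, and 7 clusters named A to G resulted. Control cells were mainly in A (227 of 231 cells from GR17, led by Krt17 and Wnt10a) and F (103 of 118, led by Col6a1 and Dapl1). SOX4KO cells made up nearly all of B (led by Pip and Postn), C (led by B4galt6 and Serpinf1) and G (led by Aspm and Pif1) and most of D (led by Efr3b and Itgam) and E (led by Foxi1 and 1600029D21Rik). The median log2 difference of the basal markers from the mean over clusters was highest in B, at 1.13, and that of the luminal markers was highest in D and E, at 0.907 and 1.05.

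The clusters differ in size between the groups, so levels were compared between clusters within a library, where a cluster held at least 20 of its cells. In GR18 Mest was at 470 CPM in C, 269 in G and 252 in B against 67.5 in E and 16.4 in D, and in GR19 it was at 475 CPM in B, 398 in C and 341 in G against 39.4 in D and 19.8 in E. In both SOX4KO libraries B, C and G were thus above D and E, and the order among B, C and G changed. In GR17 only A and F had enough cells, and Mest was at 101 CPM in A and 26.7 CPM in F. Peg3 had another order, at 52.7 CPM in E, 31.1 in B, 22.4 in D, 17.2 in G and 11 in C in GR18, and at 35.2 CPM in B, 32 in E, 24.6 in D, 12.1 in G and 10.9 in C in GR19. In GR17 it was at 8.57 CPM in A and 17.2 CPM in F. In D and E, where luminal markers were highest, Mest was at its lowest in both SOX4KO libraries, whereas Peg3 in E was above its level in C, with intervals that did not overlap. Igf2r lay between 131 and 162 CPM in the clusters of GR18, between 106 and 138 CPM in those of GR19, and at 129 and 151 CPM in A and F of GR17. Plagl1 ranged from 5.72 CPM in G to 23.9 CPM in E in GR18 and from 11.7 CPM in B to 24.6 CPM in D in GR19, and was at 18.7 and 33.9 CPM in A and F of GR17.

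**Figure D5:**
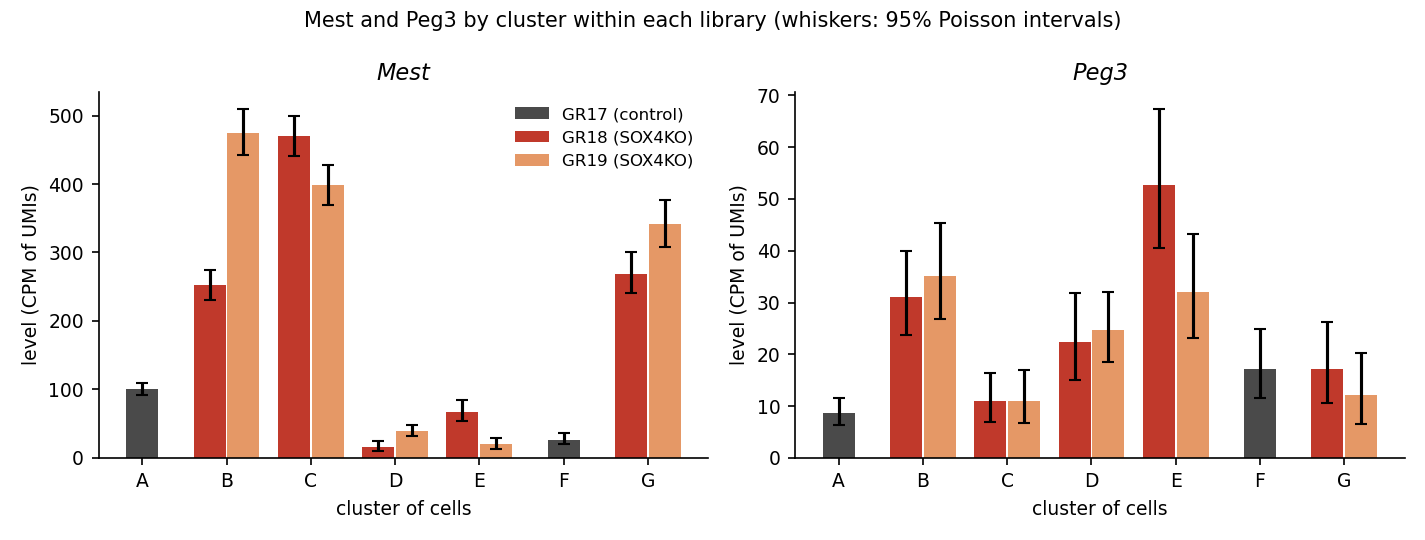
Level of Mest (left) and Peg3 (right) in CPM (vertical axes, from 0) by cluster of cells (horizontal axes), within the control library GR17 (gray) and the SOX4KO libraries GR18 (red) and GR19 (orange), where a cluster held at least 20 cells. Whiskers are 95% Poisson intervals. Within both SOX4KO libraries Mest is at 252 to 475 CPM in B, C and G and at 16.4 to 67.5 CPM in D and E, and Peg3 is highest in E and B.

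The neighbors of the members gave further values in the single-cell libraries. Copg2 gave 7, 24 and 22 UMIs, 3.30 times (1.38 to 9.08) and 2.92 times (1.21 to 8.10) control. Meg3, near Dlk1, gave 12 UMIs in GR19 against 1 in GR17, 11.2 times control (1.65 to 477). That value rested on few UMIs, and no ratio could be formed for GR18. Kcnq1ot1, the noncoding RNA that silences the Cdkn1c cluster on the paternal copy, was at 403 CPM in GR17, 368 CPM in GR18 and 709 CPM in GR19, so the SOX4KO libraries lay on either side of control. Phlda2 was at 77.4 CPM in control and 35 and 38 CPM in the SOX4KO libraries, 0.452 times (0.391 to 0.521) and 0.491 times (0.427 to 0.563) control. Igfbp3 was 2.60 and 2.29 times and Igfbp7 1.24 and 1.38 times as high as in control, the direction they had in bulk.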

How the data were processed

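Poly(A) RNA of PyMT organoids was sequenced in bulk (5 lines) and from single cells sorted into plates (3 libraries). The authors deposited raw counts, namely reads per Ensembl gene in bulk and UMI counts per gene and well. The submitters' processing notes name STAR 2.4.2a, HTSeq, Picard, R 3.6.1, edgeR, DESeq and Seurat, and the builds NCBIM37 and mm9, with no role given. Positions and promoters here are from GRCm38 and were joined by gene identifier or name, since the files hold no coordinates. The 10 genes and all lists were chosen with earlier results of these data known.

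Bulk counts were filtered with filterByExpr, scaled by TMM and fitted with edgeR 4.0.16 (quasi-likelihood test, R 4.3.3), control against SOX4KO, with Benjamini-Hochberg adjustment over 11682 genes and calls at an adjusted p under 0.1. SE is the absolute log2 fold change divided by the root of F. Nothing in the labels says that lines came from separate animals, so p-values measure only the spread between these libraries, which may be technical. Of uniquely placed reads, 34.3 to 52.2% were counted to genes, and rows that name no gene were left out. Wells with at least 1000 UMIs were kept (15, 15 and 22 of 384 wells left out per library), spike-ins were removed, and no doublet caller was run. The 348 well names that the libraries share are plate positions. Clusters were made with Seurat 5.3.0 (10 components, 20 neighbors, resolution 0.5). Intervals are exact Poisson, conditional Poisson and Clopper-Pearson at 95%. Named genes were the 10 genes, called genes of 3 lists, the neighbors of members on their chromosomes, and for each fitted member the 3 genes nearest in pattern. Alternatives were DESeq2 1.42.0, its size factors, no count filter, a threshold of 0.05, leaving out each line, UMI minimums of 500 and 2000, wells over 2 times the median left out, thinning, other totals and resolution 0.3.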

Additional observations from a re-analysis of the deposited data

Results flagged for a closer look

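Of 42 genes of these lists that could be compared in both data types, 2 lay in opposite directions: every bulk SOX4KO line was on one side of both control lines, and both SOX4KO single-cell libraries were on the other side of the control library, with counting intervals that excluded 1. Peg3 had a bulk log2 fold change of -0.736 and single-cell ratios of 1.98 and 1.80. Phlda2 had a bulk log2 fold change of 0.437 (SE 0.33) and single-cell ratios of 0.452 and 0.491. Its bulk groups barely separated, with WT3 at 10.75 CPM and M4 at 10.8 CPM, so its bulk direction is weak. Bulk groups did not overlap for 36.9% of all genes tested, but that is only a part of this rule. The share of all genes that met the whole rule was not computed, so nothing is read from the count of 2. Neither gene was called by edgeR in bulk, the bulk lines and single-cell libraries are not matched by the labels, and the difference between the data types was not tested. With 1 to 3 libraries in each group, no library could be flagged as standing apart from its group by the range of values.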

How the results depend on the processing

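For 12 gene values, 88 recomputations were made, and no called value changed its direction. Igf2r in the single-cell libraries, which was near zero at -0.08 on the log2 scale, was at 0.07 with GR18 alone. Under these settings 6 passed the threshold that had not and 9 no longer passed, among them Mest, without WT3 (log2 fold change 2.12). Without a count filter, 1008 genes were called higher and 678 lower in place of 479 and 254, 2 members were called lower (H19 and Peg3), 1 other imprinted gene was called higher and 2 lower, 1 IGF pathway gene was called lower, and 2 imprint control genes were called lower. With DESeq2, 1 member (Peg3) and 1 other imprinted gene were called lower and 1 IGF pathway gene higher. At an adjusted p under 0.05, 241 genes were called higher and 113 lower, with 1 IGF pathway gene called higher and 0 imprint control genes lower. Leaving out each line in turn gave 30 to 624 genes called higher and 26 to 382 lower, 0 to 2 members higher and 0 to 1 lower, 0 to 1 other imprinted genes lower, 0 to 2 IGF pathway genes higher and 0 to 1 lower, and 0 to 2 imprint control genes lower. The lowest counts of all genes came without WT3, and 93 and 37 were called without WT1, where each leaves 1 control line that is assumed to vary like the other group. Thinning to 5000 UMIs left 0 members with separate shares of cells, in place of 1 (Peg3). At resolution 0.3 the log2 ratio of the highest over the lowest Mest cluster, all libraries pooled, was 3.506 in place of 3.92. The causes were not tested. Scaling moved the median log2 fold change of all genes by far less than 0.1. No paired analysis was possible because the labels give the lines no shared replicate numbers, and the numbers used here only follow their order. With 2 control lines in bulk and 1 control library of single cells, depth and the number of libraries limit what could be seen for the 5 members near zero.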

Other observations

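Other genes of these lists gave single-cell values that bulk did not show. Igfbp5, the most abundant IGF binding protein of these organoids, was at 516 CPM in GR17 and at 1816 and 1883 CPM in GR18 and GR19, 3.52 and 3.65 times control, but at 16590 and 15450 CPM in the control lines and 15610 to 19110 CPM in the SOX4KO lines in bulk (log2 fold change 0.11, SE 0.246, edgeR adjusted p = 0.865). Igfbp2, another secreted binding protein, was at 22.3 CPM in GR17 and at 3.75 and 3.5 CPM in the SOX4KO libraries, 0.168 and 0.157 times control, while in bulk it ran from 18.2 to 213 CPM over the 3 SOX4KO lines and 35.9 to 123 CPM over the 2 control lines. Both genes were picked out after their values were seen, and the difference between the data types was not tested.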
